A study of Gallus gallus with 40 samples.

Results

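The genes described here encode subunits of the oxidative phosphorylation machinery of mitochondria, with a few of its assembly and supercomplex factors, measured in chicken liver. Members were chosen by symbol alone: every gene of the array annotation whose symbol begins with NDUF, UQCR or ATP5, is SDHA to SDHD, or begins with COX4 to COX8. This gave 44 genes on 63 probes, of 6428 named genes on the array, with 21 genes in complex I, 2 in complex II, 6 in complex III, 5 in complex IV and 10 in complex V.

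The study compared livers of a high growth (HG) line with those of a low growth (LG) line of broiler chickens, bred in opposite directions for body weight at 8 and 32 weeks of age, at 1, 3, 5, 7, 9 and 11 weeks. Each cDNA array carried HG liver RNA in one dye and LG liver RNA of the same age in the other, and the dyes, Alexa Fluor 647 and Alexa Fluor 555, were exchanged between arrays. The series holds 12 arrays for 1 week, 12 for 3 weeks and 4 for every later age. Per the labels, the first 4 arrays of an age held 4 different birds per line, and the further arrays at 1 and 3 weeks held the same birds again together with 4 new ones per line, without saying which array held which bird. At these 2 ages the arrays are therefore not all separate birds, and p-values measure partly technical spread. Each line is a single selected population, so that selection and other differences between the lines cannot be told apart. The birds' sex is not given in the labels used here.

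Mitochondria make most of a liver cell's ATP by passing electrons from NADH and succinate along complexes I to IV to oxygen. Complexes I, III and IV pump protons across the inner membrane, and complex V, the ATP synthase, lets them flow back through a rotating ring and stalk to make ATP. Most subunits, among them those described here, are encoded in the nucleus. Complexes I, III, IV and V also hold subunits encoded in mitochondrial DNA, none of which is named on this array.

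Values are log2 ratios of HG over LG, turned by the dye that carried HG. The direction is likely and not settled. The labels call Alexa Fluor 647 the red dye and 555 the green one, and the ratios were read as red over green, but the numerator is not given in the sources used here. With the opposite reading the lines change places in every sentence that follows. Nor do these sources say if the authors turned the ratios before deposit. Taken as deposited, 1214 of 6432 probes passed at 1 week and 620 at 3 weeks, against 1 and 0 of the turned ratios, where the study's design text speaks of few differing genes at these ages. The fit of the ratios as deposited held no dye effect, so these counts differ in model as well as in reading. With the ratios as deposited the ATP5H result below does not hold, with a mean over the ages of 0.02 (limma adjusted p = 0.889). The arrays of replicates 3 and 4 at 3 weeks held practically the same values (Pearson r = 0.99988 over 9493 spots, where the next highest correlation of any pair had a size of 0.805) although their labelled dye orientation was opposite. Both were left out, which left 38 arrays. Of these, 32 correlated above 0 with the line effect of the other arrays and 6 below it, the range being -0.372 to 0.484. The lowest was replicate 4 at 5 weeks, which comes last where 4 values in replicate order are given for that age. Arrays gave values for 7291 to 13434 of 19200 spots.

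Testing with limma required a value on 75% or more of an age's arrays, at each age. This left 6432 probes, among them 27 probes of 23 member genes. A probe is said to have passed at an adjusted p under 0.05, by Benjamini-Hochberg over all 6432. The tested members were 7 genes of complex I, 1 of complex II, 5 of complex III, 5 of complex IV and 5 of complex V. The other 36 member probes had too few values, 4 of them none at all. They are described where the 4 later ages alone allowed a fit.

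Across the 6 ages the ATP synthase subunit ATP5H was the member that stood apart, likely lower in HG than in LG liver. ATP5H encodes subunit d of the peripheral stalk, which holds the catalytic head of the enzyme still while its rotor turns. At 1 week ATP5H had values between -0.56 and 0.11 with a median of -0.24 on 12 arrays, and at 3 weeks between -0.42 and 0.16 with a median of -0.10 on 10 arrays. At 5 weeks its arrays read -0.68, -0.95, -0.91 and -0.14. At 1 week 11 of 12 arrays were negative and at 3 weeks 6 of 10, while those at 5 weeks were all negative. At 7 weeks ATP5H read 0.02, -1.06, -1.30 and -1.39. At 9 weeks it read -0.43, -0.00, -0.35 and -0.48, and at 11 weeks -0.33, -0.42, -0.28 and -0.39. The 11-week arrays lay close together, and a single array at 7 weeks lay at 0, apart from the other 3.

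**Figure D1:**
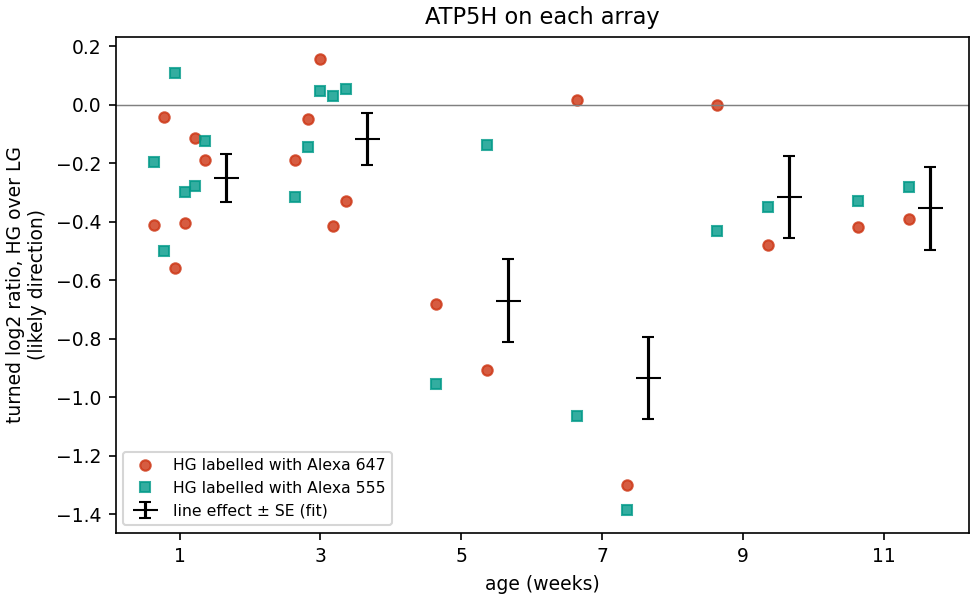
Turned log2 ratio of ATP5H, HG over LG in the likely direction, on each of 38 arrays (y axis) by age in weeks (x axis). Circles mark arrays with HG in Alexa Fluor 647 and squares those with HG in Alexa Fluor 555, and the bars give the line effect of the fit with its SE. Of the arrays at 5 to 11 weeks, 15 of 16 lie below 0, with the lowest at 7 weeks.

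The fitted difference of ATP5H was -0.25 (SE 0.0813) at 1 week and -0.12 (SE 0.089) at 3 weeks, neither past the threshold (limma adjusted p = 1). At 5 weeks it was -0.67 (SE 0.141, 1.59-fold, limma adjusted p = 0.011). At 7 weeks it was -0.93 (SE 0.141, 1.91-fold, limma adjusted p = 3.13e-05). The differences of -0.32 at 9 weeks (limma adjusted p = 0.408) and -0.35 at 11 weeks (0.795) did not pass. Averaged over the 6 ages ATP5H stood at -0.44 (SE 0.0511, 1.36-fold, limma adjusted p = 2.08e-07). This put ATP5H within the lowest 0.606% of all tested probes.

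The spread between arrays was wider at 5 and 7 weeks (median residual SD over all probes 0.266 and 0.356) than at the other ages (0.123 to 0.145). The fit pooled the spread of all ages (0.245), so that its p-values at 5 and 7 weeks are too small. Those at 9 and 11 weeks tend to be too large. The mean over the ages and the comparisons between ages below rest on the same pooled spread and on repeated birds. Their p-values are therefore not exact either. The call at 5 weeks was lost without replicate 1 (limma adjusted p = 0.0764), 2 (0.287) or 3 (0.11) of that age. In a separate fit per age ATP5H missed the threshold at 5 weeks (limma adjusted p = 1) and at 7 weeks (0.35). It missed it too with arrays scaled to the same median absolute deviation (MAD), where the difference at 7 weeks was -0.47 (limma adjusted p = 0.126). Its mean over the ages passed with that scaling (-0.31, limma adjusted p = 3.32e-05).

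The sign of ATP5H hardly depended on the dye. It was negative on 32 of 38 arrays, 17 of 22 at 1 and 3 weeks and 15 of 16 later. On the later arrays with HG in Alexa Fluor 647 it was negative on 7 of 8 with a mean of -0.52, and on those with HG in Alexa Fluor 555 on 8 of 8 with a mean of -0.62. Among 5848 probes with a value on all 16 later arrays, 9 (0.154%) were below 0 on at least 15 and 7 were above it. The cut of 15 equals the count of ATP5H itself, so this share is no separate support. The ATP5H count also includes an array at 9 weeks that read -5.04e-05, practically 0, without which ATP5H would miss the cut. ATP5H was 1 of 23 members in that set, and none of the other 22 was that one-sided. The array holds a single ATP5H probe, so no other probe could be set beside it.

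The late and early ages of ATP5H were also set against each other. The mean of 5 to 11 weeks minus that of 1 and 3 weeks was -0.39 (SE 0.0927, limma adjusted p = 0.025), and limma's moderated F test of equality over the ages had an adjusted p of 0.0277. The values at 5 and 7 weeks (-0.67 and -0.93) made this difference, while those at 9 and 11 weeks (-0.32 and -0.35) were near that at 1 week (-0.25). ATP5H was the 1 member of 27 that passed in either test, which 1.15% and 1.54% of all probes did. The late minus early difference passed in 25 of 35 other settings. It lost its call without replicate 2 at 5 weeks (limma adjusted p = 0.0597), replicate 3 at 5 weeks (0.0507), replicate 3 at 7 weeks (0.0593) or replicate 4 at 7 weeks (0.0561), and with MAD scaling (-0.12, limma adjusted p = 0.86) or the replicate number as a block (0.071). It was also lost with replicates 1 to 4 alone at 1 and 3 weeks (limma adjusted p = 1) and with replicate 3 at 3 weeks kept (0.0589). The F test called 0 members with all 40 arrays, with MAD scaling, with replicates 1 to 4 alone, with replicate 3 at 3 weeks kept, and without replicate 2 at 5 weeks or replicate 2, 3 or 4 at 7 weeks.

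Over all members few passed at any age. At 1 week 0 of 27 member probes passed in limma, where 0.0155% of all probes did, and 1 had an unadjusted p under 0.05, as had 1.34% of all probes. At 3 weeks 0 of 27 passed, where 0% of all probes did, and 0 had an unadjusted p under 0.05, as had 0.42% of all probes. At 5 weeks 1 passed (ATP5H), where 0.777% of all probes did, and 5 had an unadjusted p under 0.05, as had 8.85% of all probes. At 7 weeks 2 passed (ATP5H, and SDHD on the other side), where 2.91% of all probes did, and 5 had an unadjusted p under 0.05, as had 11.7%. At 9 weeks 0 of 27 passed in limma, where 0.84% of all probes did, and at 11 weeks 0, where 0.389% did, with 1 unadjusted p under 0.05 at each (11.4% and 4.17% of all probes). In the mean over the ages 1 passed, where 4.31% of all probes did, and 6 had an unadjusted p under 0.05, as had 14.8%. Counts of 1 or 2 calls among 27 probes are too few to tell the members from this background.

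The tested members were centred near 0. Their median was 0.01 at 1, 3 and 5 weeks. It was -0.06 beside 0.03 over all probes at 7 weeks, -0.01 beside 0.05 at 9 weeks, and -0.03 beside 0.02 at 11 weeks. On single arrays at 7 weeks the member median minus that of all tested probes ran from -0.35 to 0.06, negative on 2 of 4. Without 1 array in turn the member median reached 0.0037 at 7 weeks, 0.013 at 9 weeks and 0.0007 at 11 weeks. Its low ends were -0.12, -0.05 and -0.06 in that order. Probes share the arrays, so counts of negative probes here and below are not separate observations. At 7 weeks 15 of 27 member probes were negative (55.6%) beside 39.8% of all probes, and at 11 weeks 17 of 27 (63%) beside 39%. At 9 weeks the share was 59.3% beside 38.4%. The earlier ages showed no such excess, with 44.4%, 48.1% and 44.4% at 1, 3 and 5 weeks beside 44.7%, 58% and 46.3%. The members reached from -0.25 to 0.10 at 1 week and from -0.12 to 0.09 at 3 weeks, and from -0.93 to 0.52 at 7 weeks, so the widest span was at 7 weeks, where arrays also differed most.

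**Figure D2:**
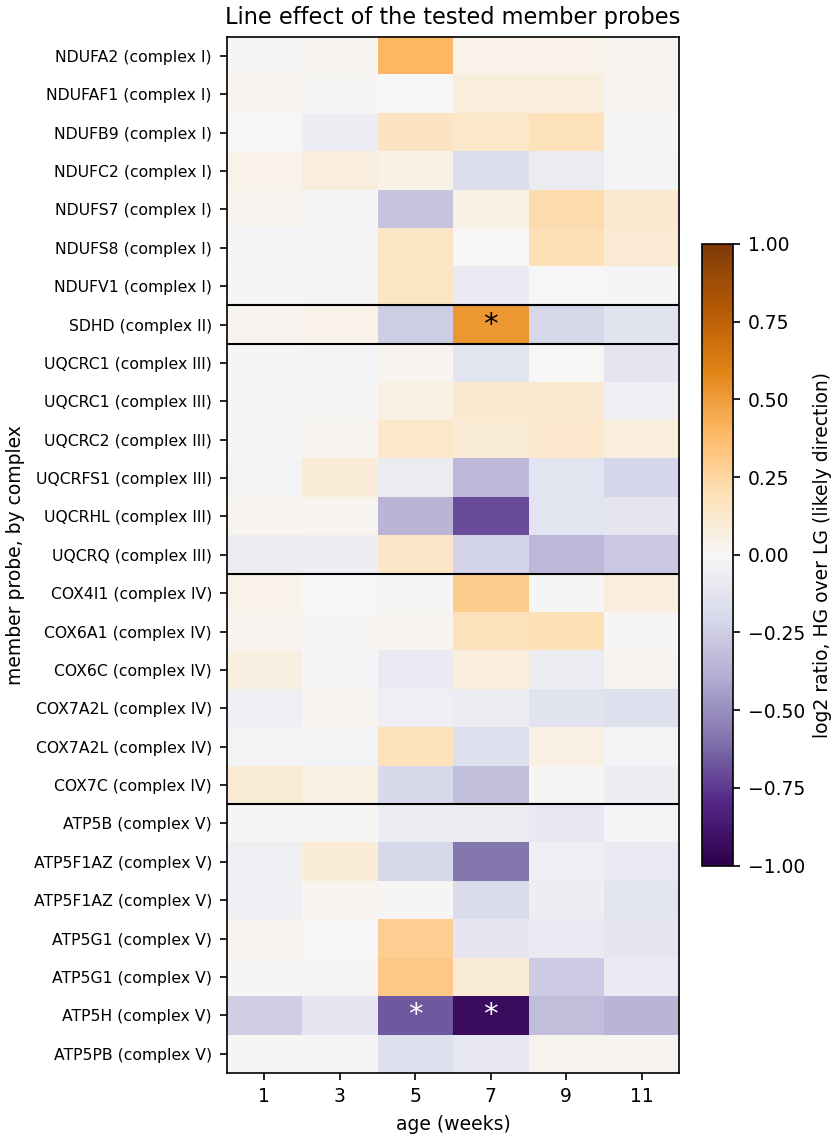
Fitted log2 ratio, HG over LG in the likely direction (colour), of the 27 tested member probes (rows, by complex) at 6 ages in weeks (columns), with stars at an adjusted p under 0.05. Values lie between -0.25 (ATP5H) and 0.10 at 1 week and between -0.12 and 0.09 at 3 weeks. Stars mark 3 cells, ATP5H at 5 and 7 weeks and SDHD at 7 weeks.

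In complex V 6 of 7 tested probes were negative at 7, 9 and 11 weeks, with medians of -0.11, -0.09 and -0.09, where 39.8%, 38.4% and 39% of all probes were. At 5 weeks 4 of 7 were negative, and ATP5H alone of the complex passed. The catalytic head was represented by ATP5F1AZ, the Z chromosome copy of the alpha subunit, and by ATP5B, the catalytic beta subunit. ATP5F1AZ read 0.32, -0.97, -1.14 and -0.54 at 7 weeks on its first probe, with a fitted difference of -0.58 (SE 0.212, limma adjusted p = 0.172). Its second probe had -0.19 (limma adjusted p = 0.506). Birds also carry a near-identical alpha copy on the W chromosome, and cDNA probes of the copies may share signal, so their levels are uncertain. The tested probe of ATP5B was at -0.06 at 7 weeks (SE 0.0783) and between -0.09 and 0.01 at the other ages. ATP5PB, subunit b of the stalk to which ATP5H also belongs, had -0.14 at 5 weeks, -0.10 at 7 weeks and 0.03 at 9 and 11 weeks, none past the threshold. The values of this stalk partner lay nearer to 0 than those of ATP5H at all 6 ages.

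ATP5G1, which encodes subunit c of the rotating ring, lay on the positive side at 5 weeks. Its 2 tested probes had 0.29 (limma adjusted p = 0.309) and 0.32 (0.542) there, and -0.11 and 0.10 at 7 weeks. Its first probe was positive on all 4 arrays at 5 weeks, with 0.28, 0.65, 0.11 and 0.11, and its second probe on 3 of them. A further ATP5G1 probe, which had too few early values, went the other way, with -0.62, -0.64, -0.85 and 0.67 at 5 weeks. The probes of ATP5G1 therefore disagreed in sign, and no level for the gene follows from them.

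In complex II the call was SDHD, which encodes a membrane anchor of succinate dehydrogenase, the enzyme shared by the citrate cycle and the respiratory chain. Its tested probe read 1.05, 0.03, 0.76 and 0.25 at 7 weeks, all positive and wide apart, with a fitted difference of 0.52 (SE 0.146, 1.43-fold, limma adjusted p = 0.0396). At 5, 9 and 11 weeks SDHD was at -0.25, -0.21 and -0.14. Its other 2 probes, not tested for want of values, read -0.15, 0.17, -0.23 and 0.27 at 7 weeks on one and 0.01, -0.02 and 0.31 on 3 arrays of the other. The 3 probes of SDHD did not share the value of the tested one. The call was lost without replicate 1 (0.37, limma adjusted p = 0.196), replicate 3 (0.21) or replicate 4 (0.0576) at 7 weeks, and in a separate fit per age (0.855). SDHA, the flavoprotein that oxidises succinate, had too few values at 1 and 3 weeks to be tested, and lay between -0.09 and -0.05 at the later ages.

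In complex III no member passed, and the lowest value was that of UQCRHL, annotated as similar to the hinge protein of the complex. UQCRHL read -0.48, -0.37, -1.08 and -0.88 at 7 weeks, all negative, with a fitted difference of -0.70 (SE 0.210, limma adjusted p = 0.067). At 5 weeks it read -0.76, -0.28, -1.005 and 0.63. At 9 weeks UQCRHL had -0.91 and -0.87 on the arrays with HG in Alexa Fluor 555, and 0.56 and 0.69 on those with HG in Alexa Fluor 647. Its sign followed the dye there and at 11 weeks, unlike that of ATP5H. UQCRFS1, the Rieske iron-sulfur protein that hands electrons to cytochrome c1, had -0.34 at 7 weeks (SE 0.150, limma adjusted p = 0.335). UQCRQ, a small subunit of the complex, was at -0.34 at 9 weeks and -0.28 at 11 weeks, with a mean over the ages of -0.14 (limma adjusted p = 0.267). The core proteins of the complex were closer to 0 in the mean, UQCRC1 at -0.04 and 0.04 in its 2 probes and UQCRC2 at 0.08.

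In complex I none of the 7 tested genes passed at any age, and from 5 to 11 weeks their median was positive (0.15, 0.04, 0.08 and 0.03 in order of age). With the genes that a fit of 5 to 11 weeks alone added, 18 genes on 21 probes, the median turned to -0.08 at 7 weeks and -0.01 at 11 weeks, with 14 of 21 probes negative at both. NDUFA2, an accessory subunit, read 0.30, 1.41, 0.33 and -0.47 at 5 weeks, with a fitted difference of 0.39 (SE 0.138, limma adjusted p = 0.275). A single array carried most of that value and another lay on the other side. NDUFS7, which holds the last iron-sulfur cluster before ubiquinone, read 0.34, -0.98, 0.40 and -0.92 at 5 weeks, so that its sign followed the dye, and its fitted difference was -0.29 (limma adjusted p = 0.519). Its other 2 probes, not tested, had means of 0.16 on 4 arrays and 0.18 on 2 arrays there, the other side. NDUFS8, which carries a pair of iron-sulfur clusters, had 0.20 at 9 weeks and 0.07 in the mean (limma adjusted p = 0.471). The tested probe of NDUFV1, the subunit that takes electrons from NADH, lay between -0.08 and 0.15 at all ages. In the fit of 5 to 11 weeks alone other NDUFV1 probes reached 0.18 at 5 weeks and -0.11 at 11 weeks. The assembly factor NDUFAF1 lay between 0.00 and 0.08 at all ages.

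Complex IV, which reduces oxygen to water, had medians between -0.03 and 0.04 at all ages and no call. COX7C, a small structural subunit, read -0.78, -1.23, 0.11 and 0.63 at 7 weeks, on both sides of 0, with a fitted difference of -0.32 (SE 0.164, limma adjusted p = 0.474). COX6A1, the liver form of another small subunit, was at 0.17 at 7 weeks and 0.20 at 9 weeks (limma adjusted p = 0.616 and 0.477). COX7A2L, a factor that joins complexes III and IV into supercomplexes, had a mean over the ages of -0.07 on one probe (limma adjusted p = 0.253) and -0.00 on the other. COX4I1, whose protein binds the regulators of the enzyme, showed the largest dye effect among the members (0.416 in log2). It read 0.90, -1.44, 1.73 and -1.24 at 5 weeks, signs that followed the dye, and its fitted difference there was -0.01.

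A fit of 5 to 11 weeks alone reached more members, 48 probes of 39 genes among 9199 probes. In it 23, 34, 29 and 36 of 48 member probes were negative in order of age. Of all 9199 probes 4512, 3989, 4052 and 4058 were negative, in the same order. The members' median at 7 weeks was -0.11 and that of all probes 0.02. One member passed at 7 weeks, ATP5H (limma adjusted p = 0.0397), where 0.489% of all probes did. One passed in the mean of the 4 ages, again ATP5H (-0.57, SE 0.0943, limma adjusted p = 0.00954), where 1.09% did. At 5, 9 and 11 weeks 0 members passed in limma, where 0.0761%, 0.0652% and 0.0761% of all probes did, and 4, 1 and 0 members had an unadjusted p under 0.05, as had 3.39%, 3.5% and 1.98% of all probes. At 7 weeks 6 members had one, beside 6.59% of all probes, and in the mean of the 4 ages 6, beside 9.21%.

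**Figure D3:**
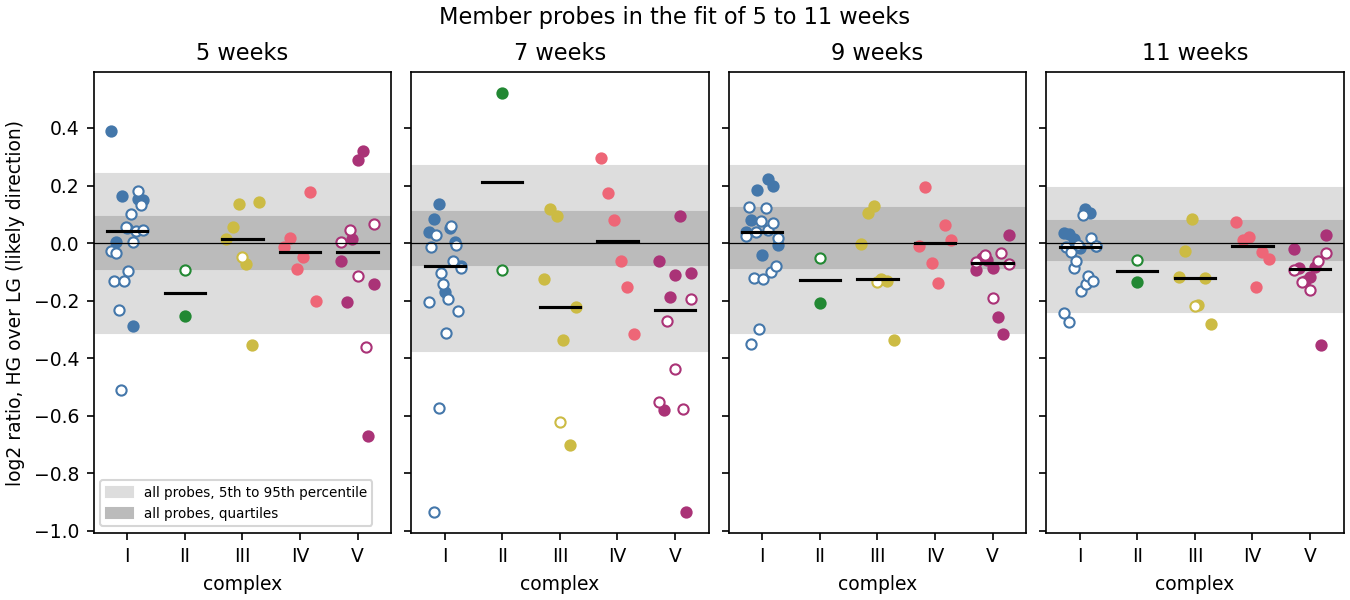
Fitted log2 ratio, HG over LG in the likely direction (y axis), of 48 member probes at 5, 7, 9 and 11 weeks (panels) by complex (x axis), from the fit of these ages alone. Filled points were also in the fit of all ages, open ones were not, short lines are medians and grey bands hold all 9199 probes by quartiles and by 5th to 95th percentile. Of 12 complex V probes 11 lie below 0 at 7, 9 and 11 weeks.

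Several members outside the fit of all ages had a low fitted difference at 7 weeks without passing. NDUFA9, an accessory subunit of complex I near the ubiquinone site, read -1.11, -1.46, -1.15 and -0.01, with a fitted difference of -0.93 (SE 0.257, limma adjusted p = 0.178). UQCRB, a small subunit of complex III that binds ubiquinone, read -0.56, -1.20, -0.43 and -0.30, with -0.62 (SE 0.176, limma adjusted p = 0.199). Both were negative on 4 of 4 arrays. NDUFB4, an accessory subunit of the membrane arm of complex I, was at -0.57 (limma adjusted p = 0.618) with one array of 4 positive. In complex V, ATP5C1, the gamma subunit of the rotor, was at -0.27 (SE 0.198). A single array made most of this value, the arrays reading 0.02, -1.01, -0.08 and -0.01. ATP5F1AW, the W chromosome copy of alpha, was at -0.44 (SE 0.361). Its arrays read 0.30, -1.05, -1.06 and 0.06, on both sides of 0. ATP5J2, of the membrane part, was at -0.20. All of these complex V probes had a limma adjusted p of 1. ATP5I, ATP5O, NDUFA5, NDUFAF2 and NDUFB10 had too few values for either fit.

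Genes with more than one probe show how far a single probe can be read. At 7 weeks the probes of 5 such genes of 7 shared a sign, among them NDUFS1 at -0.31 and -0.19 and COX7A2L at -0.15 and -0.06, and those of ATP5G1 and UQCRC1 did not. The ATP5B probes were at -0.55 and -0.06 and the ATP5F1AZ probes at -0.58 and -0.19. At 5 weeks the probes of 2 of the 7 genes shared a sign, NDUFV1 and UQCRC1. At 7 weeks the lower probe of ATP5B had an SE of 0.435 against 0.0875 for the other, and that of ATP5F1AZ 0.294 against 0.112.

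**Figure D4:**
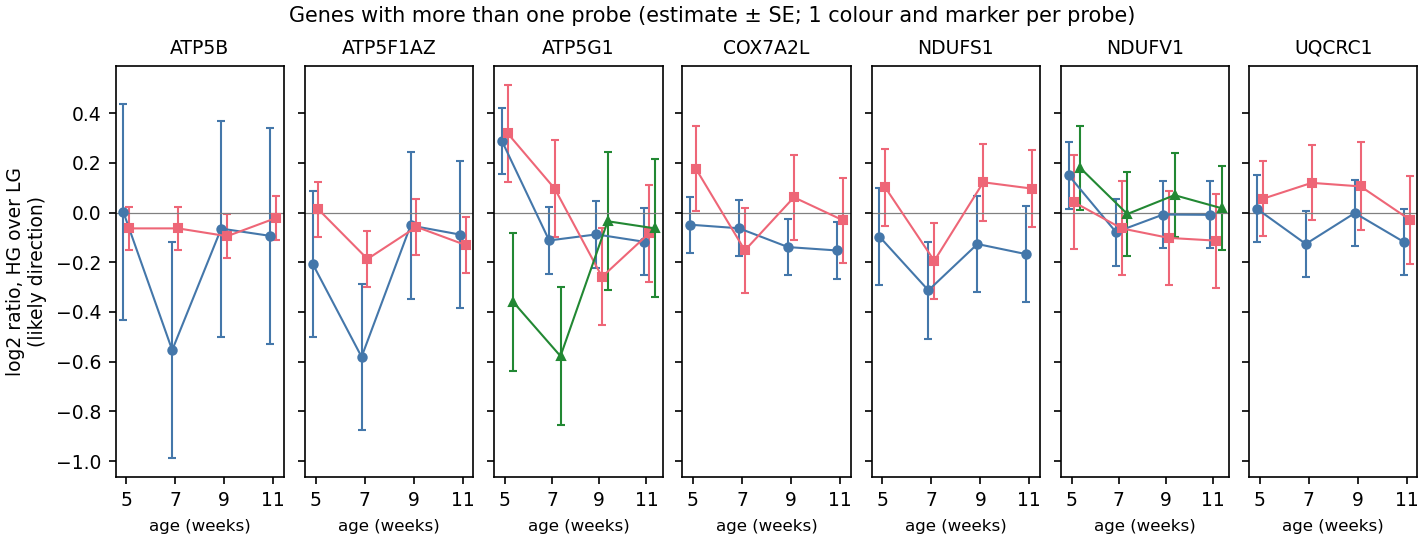
Fitted log2 ratio, HG over LG in the likely direction, with its SE (y axis) at 5, 7, 9 and 11 weeks (x axis) for 7 member genes with 2 or 3 probes (panels), 1 colour and marker per probe. The probes of ATP5G1 lie on both sides of 0 at 5 and 7 weeks, and those of ATP5B at 7 weeks differ by 0.49.

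Members and dye moved together on single arrays. The median of the member probes minus that of all tested probes was positive on 16 of 19 arrays with HG in Alexa Fluor 647 (median 0.06), and negative on 17 of 19 with HG in Alexa Fluor 555 (median -0.08). The dyes were balanced at each age, and the fit holds a dye effect, whose median was 0.045 over the members and -0.01 over all probes. An array of one orientation alone would show the members shifted by this much.

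**Figure D5:**
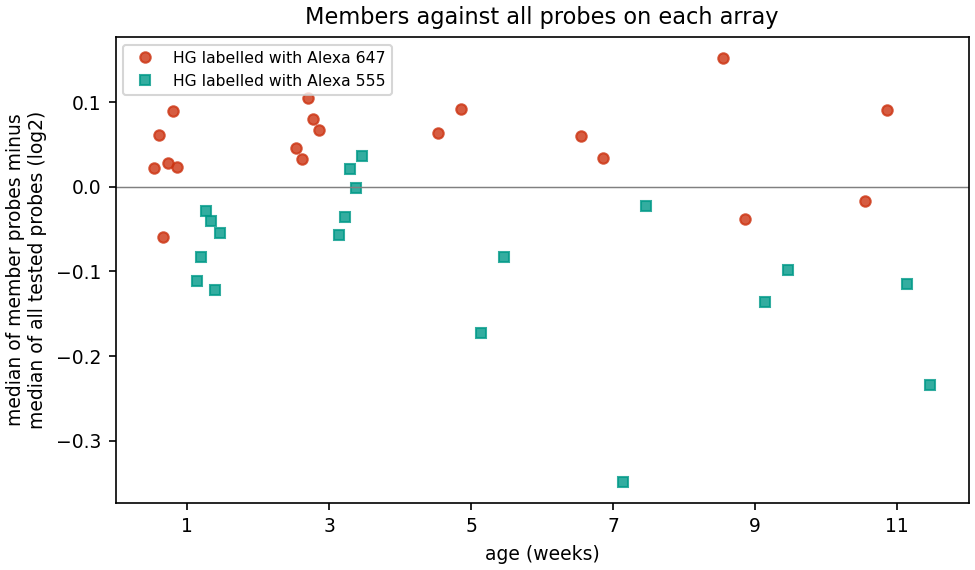
Median of the tested member probes minus that of all tested probes on each of 38 arrays (y axis, log2) by age in weeks (x axis), with circles for HG in Alexa Fluor 647 and squares for HG in Alexa Fluor 555. Circles lie above 0 on 16 of 19 arrays and squares below it on 17 of 19.

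Genes that work beside the complexes were read from lists. In the mean over the ages 4.31% of all probes passed. Counts of 1 or 2 calls in lists this small were not tested against that share, so no list is read as differing from it. Of 12 tested assembly and maturation factors, on 14 probes, 2 passed in the mean over the ages, both negative, FOXRED1 (-0.45, limma adjusted p = 0.0154), needed to assemble complex I, and ATPAF2 (-0.17, limma adjusted p = 0.0249), which assembles the head of the ATP synthase. The other probe of ATPAF2 was at -0.01 in the mean (limma adjusted p = 0.966). A list for ubiquinone and other electron carriers held 8 tested genes on 9 probes, COQ2, COQ3, COQ6, COQ8A, COQ10B, PDSS2, ETFA and ETFDH. Of them 1 passed in the mean, COQ10B (0.23, limma adjusted p = 0.00011), a ubiquinone binding protein. COQ10B also passed at 11 weeks (0.48, limma adjusted p = 0.0161) and late minus early (0.34, limma adjusted p = 0.00618). Of all probes 0.389% and 1.15% passed in these 2 tests. Of 5 inner membrane carriers and channels, on 8 probes, 2 passed in the mean, both negative. They were SLC25A6, which exchanges ADP for ATP (-0.47, limma adjusted p = 0.000118), and SLC25A3, which brings in phosphate (-0.25, limma adjusted p = 0.0115). The same SLC25A6 probe passed at 7 weeks (-1.26, limma adjusted p = 0.00112) and late minus early (-0.65, limma adjusted p = 0.0116). The other probe of SLC25A6 was at -0.19 in the mean (limma adjusted p = 0.302), and that of SLC25A3 at -0.04 (0.63). In limma 0 of 7 genes of pyruvate dehydrogenase and the citrate cycle, 0 of 19 of the mitochondrial ribosome and 0 of 7 of protein import passed at any age. At single ages between 0% and 2.91% of all probes passed. Of the 8, 22 and 7 probes of these lists, 1, 2 and 0 had an unadjusted p under 0.05 in the mean, as had 14.8% of all probes. Of 10 genes of the vacuolar proton pump, a relative of the ATP synthase, 15 probes were tested. ATP6V1A passed in the mean on 1 probe (-0.60, limma adjusted p = 1.31e-05), while its other probe was at 0.04. The first probe also passed at 5 weeks (-1.06, limma adjusted p = 0.0197) and at 7 weeks (-1.60, limma adjusted p = 2.98e-05). The other probe was at 0.09 and 0.07 at these ages.

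In whole liver, fewer cells of a type and less RNA per cell cannot be told apart. Of hepatocyte marker genes on the array 10 of 10 were tested, as were 4 of 4 erythroid and 5 of 6 leukocyte genes. Such coverage cannot tell one tissue from another. At 5 weeks 12 of 15 hepatocyte probes were negative, the side of ATP5H, beside 46.3% of all probes, with a median of -0.21. Of them 2 passed, both of TTR and negative, where 0.777% of all probes did. The 3 positive probes, none past the threshold, were those of FGG (0.83), FABP1 (0.76) and TF (0.32). In limma 7 of the 15 had an unadjusted p under 0.05, 4 of them negative, as had 8.85% of all probes. At 7 weeks 7 of 15 hepatocyte probes passed, 4 positive and 3 negative, where 2.91% of all probes did. The 15 probes lay between -2.02 and 1.35. The negative calls were those of TTR (-1.63 and -1.06) and LBFABP (-2.02). The positive calls were FGA on 2 probes (1.25 and 1.18), FGB (1.35) and TF (0.93). Another FGA probe was at 0.33 (limma adjusted p = 0.21). Of the 4 erythroid genes HBBA alone passed at 7 weeks (0.86, limma adjusted p = 1.63e-05). The 4 erythroid probes reached from -0.02 to 0.86 there, 2 positive and 2 negative, with a median of 0.16. Of 5 leukocyte, 6 muscle and heart, 1 pancreas, 1 bile duct and 5 adipose and stroma genes 0 passed in limma at 7 weeks, with values between -0.14 and 0.22 and 0 unadjusted p under 0.05. Summed levels per line cannot be given from ratios, and the part of these shifts in the ATP5H difference was not tested.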

How the data were processed

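Liver RNA of HG and LG chickens was hybridised to 2-colour cDNA arrays. The deposited table holds 1 linear ratio per spot and array; array ratio medians lay between 0.966 and 1.015, and background correction and normalization are not given in the sources used here. Ratios were set to log2 and turned by the labelled dye, and spots of 1 probe were averaged. With limma 3.58.1 in R 4.3.3, a line effect per age and 1 shared dye effect were fitted, with Benjamini-Hochberg adjustment over 6432 probes. All 40 arrays had been planned for this fit. The 2 near-identical arrays at 3 weeks were left out after the data were seen, and the fit with all 40 became an alternative. The fit was tested on simulated data with independent arrays and the same spread at all ages. The unequal spread between ages and the repeated birds were not simulated, so this does not check the p-values for them. Gene names came from the platform annotation, and all 44 member symbols matched RefSeq by gene ID. Precision is limited by the number of arrays.

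Genes were named where they passed, or had the smallest p of their complex at an age or in the mean. Others in the text, among them COX4I1, NDUFA9, UQCRB and NDUFB4, were chosen after their values were seen. Members, gene lists and tests were chosen with earlier results of these data known. No array column was left unused. No sequences are shown.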

Additional observations from a re-analysis of the deposited data

Results flagged for a closer look

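ATP5H differed between ages in its HG over LG ratio: the mean of the later ages minus that of the early ones was -0.39 (limma adjusted p = 0.025), and equality over the 6 ages had a limma adjusted p of 0.0277. In 86 sets of 4 to 10 arrays of a named probe or of the member median, 2 held an array far from the others, where chance gives about 1 in 20. NDUFS8 read -0.33 on replicate 4 at 5 weeks, beside 0.29, 0.36 and 0.31 on the other arrays. COX6A1 read 0.46 on replicate 3 at 7 weeks, beside 0.09, 0.10 and 0.04.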

How the results depend on the processing

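Each result was recomputed in up to 37 settings, 16 of which left out 1 array of 5 to 11 weeks. The mean of ATP5H passed in 34 of 35 settings, its value at 7 weeks in 32 of 37, at 5 weeks in 27 of 37 and late minus early in 25 of 35, and SDHD at 7 weeks in 21 of 36. Where a value changed, the cause was not tested. The number of all probes past the threshold also changed between settings. A changed member count is therefore not a result about the members alone. Where the number of all probes is not given beside it, a member count below cannot be set against the background. Numbers of members past the threshold follow (1 at 5 weeks, 2 at 7 weeks and 1 each in the mean, late minus early and the F test as reported).

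Without 1 array in turn they ranged from 0 to 8 at 5 weeks, 1 to 4 at 7 weeks, 1 to 4 in the mean, 0 to 2 late minus early and 0 to 3 in the F test. Without replicate 4 at 5 weeks, 8 members and 933 of all probes passed there, 4 members at 7 weeks and 4 in the mean. Without replicate 2 at 7 weeks 4 passed at 7 weeks.

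A separate fit per age gave 0 at 5 and 7 weeks (0 and 25 of all probes). Array weights gave 1 at 1 week, 0 at 5 and 7 weeks, 6 at 9 weeks, and 2 each in the mean and late minus early. The counts with array weights were not tested against the share of all probes in that setting. MAD scaling gave 0 at 5 and 7 weeks, late minus early and in the F test, with 11 of all probes at 7 weeks. A first form of that scaling, which also centred the arrays, was replaced after its values were seen; it gave 0 in the same 4 results, with 8 of all probes at 7 weeks. Centring, a value on every array, no dye effect and all 40 arrays each gave 1 at 7 weeks, and all 40 arrays gave 0 in the F test. A dye effect per age gave 2 in the mean, late minus early and the F test. Replicates 1 to 4 alone at 1 and 3 weeks gave 0 at 5 weeks, late minus early and in the F test, and 1 at 7 weeks. Keeping replicate 3 at 3 weeks gave 0 late minus early and in the F test. Without 3 arrays that ran against the others (replicates 1 and 2 at 3 weeks and 4 at 5 weeks) 8 passed at 5 weeks, 5 in the mean and 3 in the F test. Without all 6 such arrays 7, 4 and 2 passed. Such arrays ran against the line effect of these same data. Leaving them out can raise the number of calls by itself, so these counts add no support. The counts without replicate 4 at 5 weeks alone share this limit. The fit of 5 to 11 weeks alone gave 0 at 5 weeks and 1 at 7 weeks.

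Ratios as deposited, not turned, gave 4, 2, 10, 9, 4 and 5 at 1 to 11 weeks. They gave 12 in the mean, 6 late minus early and 13 in the F test. Far more of all probes also passed with these ratios at the early ages, as given in the Results. The member counts were not tested against the share of all probes, so they do not set the members apart. With the ratios as deposited the member median was 0.18 at 7 weeks and 0.0747 at 9 weeks. ATP5H reversed to 0.29 at 7 weeks, 0.018 in the mean and 0.091 late minus early, none past the threshold.

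Same-numbered arrays of different ages correlated more (median 0.179, over 0.1 in 37 of 58 pairs) than arrays of other numbers (-0.00222), with a consensus correlation of 0.136. Since not every pair was over 0.1, the numbers were not taken as a pairing. This rule cannot exclude that same-numbered arrays share something, while the main fit treated all arrays as independent. With the replicate number as a block 0 members passed late minus early (ATP5H adjusted p = 0.071), and SDHD at 7 weeks had 0.0532.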
